A study of Homo sapiens with 6 samples.

Results

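The AP-1 and immediate early genes are described here in HEK-293T, a line of human embryonic kidney cells that carries adenoviral early genes and the SV40 large T antigen. The 10 members were the genes JUN, JUNB, JUND, FOS, FOSB, FOSL1, FOSL2, EGR1, IER2 and IER3, and were found by their symbols in the platform annotation, in which each had 1 probe among the 20046 genes with a named probe. Cells transduced with RUNX1 lentivirus were compared with cells transduced with the MCS control virus, which carries a multiple cloning site in place of RUNX1. Both groups were transduced at 10 MOI, selected with 1 µg/ml puromycin and harvested on day 7, so that both are selected populations of transduced cells and neither is a single clone. The cells were grown in medium with fetal bovine serum, transduced with polybrene, and then given fresh medium. Apart from these and the puromycin, the methods name no further serum or drug stimulus for the arrays. The paper also treated some transduced cells with mitomycin-C to stop growth, and does not state whether the arrays measured such cells. The sources used here do not state the promoter that drives RUNX1. Each group was measured on 3 Illumina HT-12 v4 BeadChip arrays. The paper calls them biological triplicates, but the labels do not say that the cultures were separate, so the p-values measure the spread between these arrays, which may be technical.

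AP-1 is a dimer of basic leucine zipper proteins. A JUN family protein pairs with another JUN or with a FOS family protein, and the dimer binds DNA at short sites called TREs and, with some partners, CREs. Most of these genes are immediate early genes, which means that existing transcription factors switch them on within minutes of a growth factor or a stress signal, without new protein synthesis. MAP kinases do this by phosphorylating JUN itself and the ETS family cofactors of SRF, which sits at CArG boxes, while CREB acts at CREs. EGR1 is a zinc finger transcription factor, and IER2 and IER3 are small proteins induced together with it. In unstimulated cells the transcripts are short-lived and usually scarce, with JUND the member known for steady expression.

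Expression values are log2 intensities after background correction and quantile normalization. A probe counted as detected on an array where its detection p-value, which compares it with negative control probes, was under 0.05. Between 38.3% and 40.9% of the 47231 probes were detected on an array. RUNX1 itself was detected in 0 of its probe signals on the RUNX1 arrays and in 1 of 18 over all 6 arrays, so the arrays give no check of the overexpression. Of 7 HEK293 marker genes with a named probe, which are of kidney or neuronal type, 5 passed the filter on detection (at least 3 arrays). Among them were the neuronal genes NEFL and NEFM. Of the kidney genes LHX1 was detected on 3 arrays and PAX2 on no array. Among blood cell markers 2 of 8 passed, and PTPRC and SPI1 were detected on no array. By qRT-PCR, however, the paper reports that RUNX1 raised SPI1 significantly, to a level still far below that of monocytes. For fibroblasts 2 of 6 passed. A principal component analysis of the genes tested split the arrays into 2 sides along its first component, which held 66.7% of the variance. On the negative side lay the first 2 RUNX1 arrays (-21.1 and -21.3) with the first MCS array (-25.6). The positive side held the remaining RUNX1 array (26.6) and the other MCS arrays, replicates 2 (15.0) and 3 (26.4). What separates the sides was not tested, and several members below followed them.

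No member passed an adjusted p of 0.05 from limma in the comparison of RUNX1 with MCS. FOSL1 stayed near background and was not tested, and the other 9 were tested among 11129 genes. The differences (RUNX1 minus MCS, log2) ran from -0.42 for JUNB to 0.75 for FOSB, 6 of 9 were above 0, and the median was 0.068 beside 0.021 over all genes tested. The adjusted p was 1.00 for each member from limma, and 0 of 9 had an unadjusted p under 0.05. In the background of all genes tested, 0% were called (0 of 11129), as were 0% of the 18867 detected probes, and 2.26% had an unadjusted p under 0.05. In such bulk RNA, fewer cells that express a gene and less RNA per cell cannot be told apart.

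**Figure D1:**
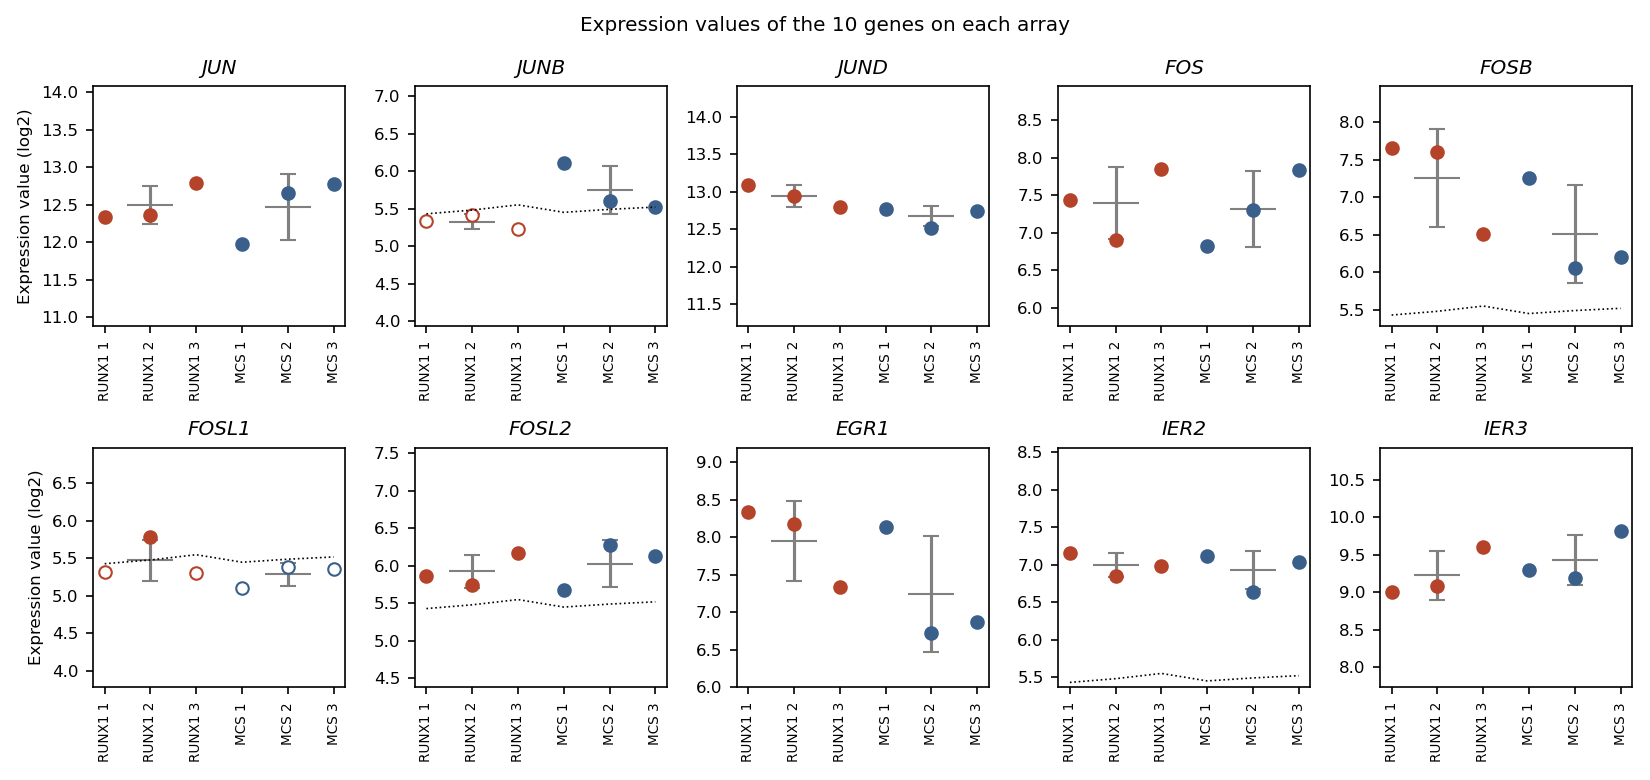
Expression value (log2) of each member on the 3 RUNX1 arrays (red) and the 3 MCS arrays (blue). Filled points were detected at a p under 0.05 and open points were not, grey bars give the mean ± SD of each group, the dotted line is the lowest value of any detected probe on each array where it falls within the panel, and each panel spans the same number of log2 units. EGR1 and FOSB were high on the first 2 RUNX1 arrays and the first MCS array, and JUNB was detected on the MCS arrays only.

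The bases before the start of 6 members are given because these genes either ran in 1 order over the arrays (EGR1 with FOSB), shared their lowest and highest arrays (JUN with FOS) or kept the groups apart (JUND and JUNB). Each is the 250 bases before the RefSeq start in GRCh38.p14, written 5′ to 3′ on the strand of the gene. EGR1 lies at chr5:138465229-138465478 (plus strand), FOSB at chr19:45467746-45467995 (plus), JUN at chr1:58784048-58784297 (minus), FOS at chr14:75278578-75278827 (plus), JUND at chr19:18281623-18281872 (minus) and JUNB at chr19:12791236-12791485 (plus). Capitals mark matches, on either strand, to the CRE core TGACG, the full CRE TGACGTCA (which holds the core on both strands), the JUN promoter variant TGACATCA and the CArG box.
EGR1: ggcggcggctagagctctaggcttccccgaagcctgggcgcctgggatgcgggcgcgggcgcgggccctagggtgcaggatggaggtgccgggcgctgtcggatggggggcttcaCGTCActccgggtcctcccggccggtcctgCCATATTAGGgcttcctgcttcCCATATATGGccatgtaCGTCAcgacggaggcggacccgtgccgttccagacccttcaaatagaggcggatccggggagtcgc
FOSB: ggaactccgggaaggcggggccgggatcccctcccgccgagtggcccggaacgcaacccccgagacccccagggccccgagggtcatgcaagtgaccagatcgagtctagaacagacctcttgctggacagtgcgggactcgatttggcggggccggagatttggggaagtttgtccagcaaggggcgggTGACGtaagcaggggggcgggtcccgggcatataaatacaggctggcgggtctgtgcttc
JUN: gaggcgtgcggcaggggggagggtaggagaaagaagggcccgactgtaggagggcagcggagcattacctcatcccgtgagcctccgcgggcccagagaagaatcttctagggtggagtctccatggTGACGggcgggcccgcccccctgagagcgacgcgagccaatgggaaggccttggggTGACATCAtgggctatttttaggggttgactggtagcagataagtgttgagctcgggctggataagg
FOS: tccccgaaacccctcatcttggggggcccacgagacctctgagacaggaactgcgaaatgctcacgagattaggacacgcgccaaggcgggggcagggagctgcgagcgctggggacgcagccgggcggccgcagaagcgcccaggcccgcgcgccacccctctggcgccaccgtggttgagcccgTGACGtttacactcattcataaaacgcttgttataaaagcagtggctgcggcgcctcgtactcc
JUND: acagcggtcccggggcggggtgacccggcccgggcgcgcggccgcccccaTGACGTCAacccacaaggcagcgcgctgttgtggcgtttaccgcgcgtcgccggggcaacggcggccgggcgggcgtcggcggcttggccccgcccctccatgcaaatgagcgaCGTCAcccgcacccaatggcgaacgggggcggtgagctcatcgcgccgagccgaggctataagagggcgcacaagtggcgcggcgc
JUNB: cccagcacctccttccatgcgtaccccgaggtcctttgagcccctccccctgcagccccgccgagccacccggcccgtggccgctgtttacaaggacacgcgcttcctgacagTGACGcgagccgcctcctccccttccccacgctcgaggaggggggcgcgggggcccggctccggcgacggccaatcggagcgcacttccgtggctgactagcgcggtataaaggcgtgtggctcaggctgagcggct

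The CRE core was found in 8 of the 8 members with a RefSeq promoter here, beside 21.2% of 35114 promoters of the same length and 29.2% of 8963 promoters of genes tested. It lay at -64 to -60 in FOS and at -60 to -56 in FOSB, counted from the start. Within these 250 bases EGR1 alone had CArG boxes, at -105 to -96 and at -83 to -74, with a CRE core on either side of the pair. Bases further from the start were not searched, so sites of other members there would be missed. CArG boxes were present in 1.16% of all promoters and 1.03% of those of genes tested. The full CRE was found in JUND alone (1.65% of all promoters and 2.99% of those of genes tested). The variant was found in JUN alone (2.38% and 1.44%), at -67 to -60. The TRE, searched as TGANTCA with N as any base, was in 0 of 8 windows (6.57% of all promoters and 3.99% of those of genes tested). The RUNX core TGTGGT was also in 0 of 8 (11% and 7.92%). Other variants of these sites were not searched. A match is a description of these letters and not evidence that a factor was bound.

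**Figure D2:**
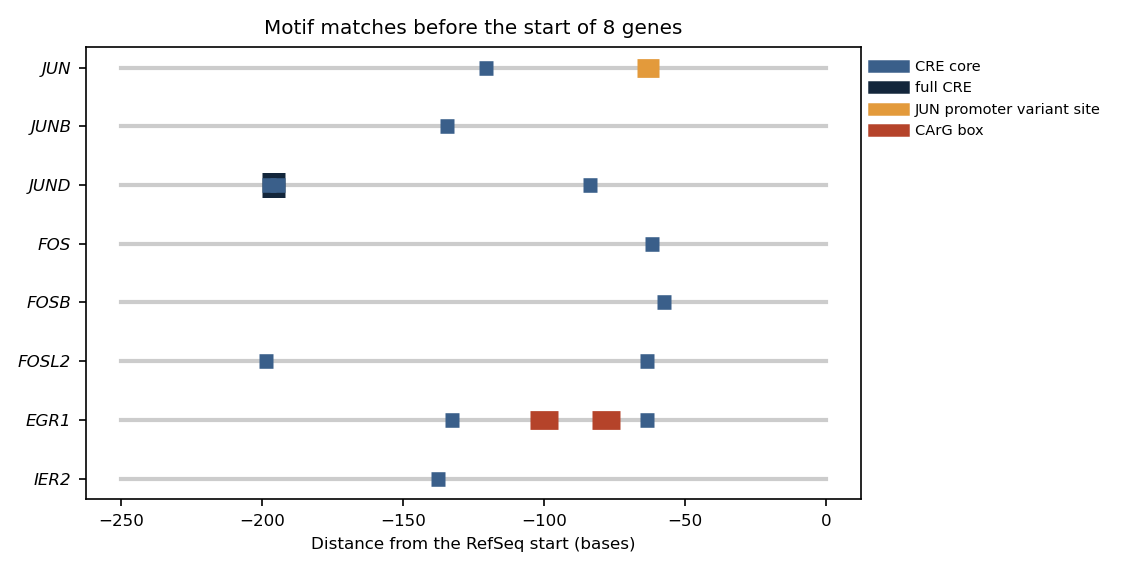
Motif matches in the 250 bases before the RefSeq start of 8 members, as distance from the start in bases, with a colour for each motif. Within this window each of the 8 held a CRE core, and EGR1 was the only one with CArG boxes. Bases further from the start were not searched.

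Of the JUN family, JUN and JUND were well above background on every array and JUNB was close to it. Values are given from replicate 1 to replicate 3 of each group. JUN, the kinase-regulated subunit that dimerizes with FOS proteins, was at 12.34, 12.36 and 12.79 in RUNX1 cells and at 11.97, 12.65 and 12.78 in MCS cells. The groups overlapped, and the lowest array was MCS replicate 1. Their means were 12.50 ± 0.25 (SD, n = 3) for RUNX1 and 12.47 ± 0.43 (SD, n = 3) for MCS, a difference of 0.031 with a 95% confidence interval of -0.54 to 0.60. The sign of this difference turned without RUNX1 replicate 3 (-0.12), without MCS replicate 1 (-0.22), with array weights (-0.25) and without normalization (-0.11, where the median of all genes tested was at -0.17).

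JUND, the member that growth signals induce least, was the only one for which every RUNX1 array lay above every MCS array. It was at 13.09, 12.94 and 12.79 with RUNX1 and at 12.77, 12.52 and 12.74 with MCS, so that the nearest arrays of the groups were at 12.79 and 12.77.  The difference was 0.26 (95% confidence interval -0.073 to 0.59, fold 1.20), and the 2-sided exact permutation p was 0.1, the smallest that 3 arrays against 3 allow. Without normalization the difference was 0.11, and with array weights it was 0.41 (adjusted p = 0.0506, limma). Such separation upwards was seen for 3.81% of all genes tested. JUND moved little across the arrays, with a range of 0.56, at the median of all genes tested (0.56).

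JUNB, which often opposes JUN in cell growth, lay the other way. Its probe was detected on all 3 MCS arrays, with intensities of 158, 132 and 127, and on 0 of 3 RUNX1 arrays, with 120, 124 and 116. The detection p-values were 0.0039, 0.0247 and 0.0494 with MCS and 0.0857, 0.0662 and 0.171 with RUNX1. MCS replicate 3 and RUNX1 replicate 2 thus lay close to the threshold, on either side of it. On the log2 scale it was at 5.33, 5.42 and 5.23 with RUNX1 and at 6.11, 5.60 and 5.52 with MCS. Every RUNX1 array was below every MCS array, as for 2.75% of all genes tested. Groups that did not overlap in either direction made up 6.56% of all genes tested and 2 of the 9 members. JUNB passed the filter through the MCS arrays alone, and with no filter on detection its adjusted p was also 1.00 (limma). Its means were 5.33 ± 0.094 (SD, n = 3) for RUNX1 and 5.74 ± 0.32 (SD, n = 3) for MCS. Set against the lowest detected signal of each RUNX1 array (5.49 on average), the mean of the MCS arrays was 1.19-fold higher. That ratio was not tested, and MCS replicates 2 and 3, at 5.60 and 5.52, lay close to the same level. The fitted difference of -0.42 (95% confidence interval -0.84 to 0.0086) sets no limit on the size of the change, since the RUNX1 level is only a bound, and it fell to -0.24 without MCS replicate 1, to -0.24 with array weights and to -0.18 without background correction. With the stricter filter on detection JUNB was not tested.

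In the FOS family, FOS and FOSB were detected on all 6 arrays, and FOS was lowest on 2 of the 3 arrays on which FOSB was highest. FOS, the classical partner of JUN, was at 7.44, 6.90 and 7.85 in RUNX1 cells and at 6.82, 7.30 and 7.84 in MCS cells. The lowest arrays were MCS replicate 1 and RUNX1 replicate 2, and the groups overlapped almost completely. The difference was 0.076 (95% confidence interval -0.68 to 0.83), and it turned to -0.15 without RUNX1 replicate 3, to -0.17 without MCS replicate 1, to -0.21 with array weights and to -0.14 without normalization. The spread of FOS was wide, with a range of 1.03 at a percentile of 87.7 among the genes tested.

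FOSB, a FOS relative whose shorter isoform persists after chronic stimulation, was at 7.66, 7.61 and 6.51 with RUNX1 and at 7.26, 6.06 and 6.21 with MCS. It was high on the 3 arrays with negative scores on the first principal component, which include MCS replicate 1, and lower on the other 3 arrays. The means were 7.26 ± 0.65 (SD, n = 3) for RUNX1 and 6.51 ± 0.66 (SD, n = 3) for MCS. This gave the largest difference of the 9 members tested, 0.75 (95% confidence interval -0.22 to 1.72, fold 1.68), with an exact permutation p of 0.2. One probe cannot tell the isoforms apart.

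FOSL2 and FOSL1, which encode the later FOS-related antigens, were dim. The FOSL2 probe was detected on all 6 arrays, with intensities of 135 to 170. Its values were 5.86, 5.75 and 6.17 with RUNX1 and 5.68, 6.28 and 6.13 with MCS, which overlapped, and the difference was -0.10 (95% confidence interval -0.57 to 0.36). It was -0.41 with array weights (adjusted p = 0.0675, limma), its sign turned without MCS replicate 2 (0.021), and the stricter filter on detection left FOSL2 out. FOSL1 was detected on RUNX1 replicate 2 alone (intensity 136, detection p-value 0.0117). On the other arrays its signal was 115 to 122, with detection p-values of 0.0688 to 0.208, so FOSL1 was not measured above background there and no difference is given.

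EGR1, whose promoter carries the CArG boxes shown above, varied about as much as FOSB. It was at 8.33, 8.18 and 7.34 in RUNX1 cells and at 8.13, 6.72 and 6.87 in MCS cells. The same 3 arrays were high as for FOSB, and the 6 arrays had an identical order for both genes, from MCS replicates 2 and 3 as the lowest through RUNX1 replicate 3 and MCS replicate 1 to RUNX1 replicates 2 and 1 as the highest. Expressed as means, EGR1 was at 7.95 ± 0.54 (SD, n = 3) for RUNX1 and 7.24 ± 0.78 (SD, n = 3) for MCS. The difference was 0.71 (95% confidence interval -0.28 to 1.70, fold 1.64), with an exact permutation p of 0.2.

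The values of EGR1 and FOSB depended on the arrays compared. Without MCS replicate 1 the differences were 1.16 and 1.13, with intervals of 0.43 to 1.89 and 0.27 to 1.98, but the adjusted p-values stayed at 0.640 (limma). With array weights they were 1.35 and 1.40 and passed the threshold, each at an adjusted p = 0.0447 (limma), beside 0.530 to 1.00 for both genes under the other alternatives. The smallest weights, 0.279 for RUNX1 replicate 3 and 0.314 for MCS replicate 1, went to the arrays that parted from their own group on the first principal component, and the part of that separation in the weighted differences was not tested. In the authors' processed values the differences were 0.43 for EGR1 and 0.39 for FOSB, and without background correction they were 0.48 and 0.44. Without MCS replicate 2 the difference of EGR1 was 0.45. Since RUNX1 was not detected on its own arrays, the group labels of these arrays could not be checked from the data and were used as given, and each difference here rests on them.

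The groups overlapped for IER2 and IER3. IER2, a nuclear protein induced early by growth factors, had the smallest range over the arrays (0.51, beside 0.56 for JUND, whose spread within groups was smaller), at 7.16, 6.85 and 6.98 with RUNX1 and 7.11, 6.64 and 7.04 with MCS. Its difference of 0.068 (95% confidence interval -0.33 to 0.46) turned to -0.15 without normalization, to -0.013 without RUNX1 replicate 1 and to -0.076 without MCS replicate 2. IER3, a stress-inducible gene that affects cell survival, was at 9.0, 9.08 and 9.60 with RUNX1 and 9.29, 9.19 and 9.81 with MCS. Within each group replicate 3 was the highest array. The difference of -0.20 (95% confidence interval -0.74 to 0.34) was -0.013 without MCS replicate 3, -0.39 without RUNX1 replicate 3 and -0.40 without normalization.

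**Figure D3:**
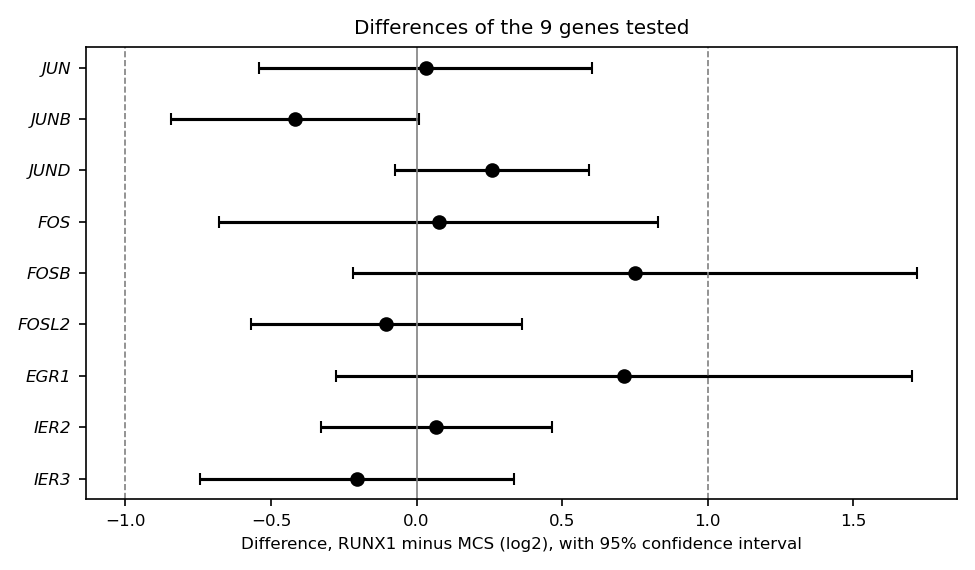
Difference (RUNX1 minus MCS, log2) of the 9 members tested, with 95% confidence intervals from limma and dashed lines at a 2-fold change. Each interval includes 0, those of FOSB and EGR1 reach past 2-fold, and that of JUNB sets no limit because its RUNX1 level was not above background.

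Of the 8 tested members detected in both groups, 6 had a confidence interval that left out a change of 2-fold in either direction, and FOSB and EGR1 were the exceptions. The 6 include FOSL2, whose signal lay near background, so that its interval may understate a change. For JUNB, detected in MCS cells alone, no such limit is given. As fold changes, RUNX1 over MCS, the intervals were 0.858 to 3.30 for FOSB and 0.825 to 3.26 for EGR1, compared with 0.951 to 1.51 for JUND and 0.796 to 1.38 for IER2. Under 20 alternatives the interval also stayed within 2-fold for JUN, JUND, IER2 and IER3, and for FOSL2 under the 19 in which it was tested. It reached 2-fold under 4 of 20 for FOS.

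The members differed widely in how much they varied across the 6 arrays. EGR1 and FOSB had ranges of 1.61 and 1.6, or about 3.06-fold and 3.03-fold, at percentiles of 98.3 and 98.2 among the genes tested. FOS followed at 1.03 and JUNB at 0.88 (percentile 79.7). JUN and IER3 had ranges of 0.82 and 0.81, and FOSL2, JUND and IER2 of 0.60, 0.56 and 0.51. The median range was 0.82 for the 9 members and 0.56 for all genes tested. On the first principal component the loadings of FOSB (-0.026) and EGR1 (-0.025) were at percentiles of 98.4 and 98.3 by size among the genes tested, and their sign means higher values on the side that holds MCS replicate 1. Those of JUN (0.012) and FOS (0.015) had the opposite sign.

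The share of probes detected, 40.9%, 39.8% and 40.4% on the side with high EGR1 and FOSB and 38.3%, 39.6% and 39% on the other, ran with these genes, and its part in them was not tested. The fibroblast marker LUM, a matrix proteoglycan, followed the same arrays. It was at 8.37 and 7.95 on RUNX1 replicates 1 and 2 and at 8.16 on MCS replicate 1, and was not detected on the other 3 arrays (5.41 to 5.45). COL1A1 and PDGFRA were also highest on RUNX1 replicates 1 and 2 and MCS replicate 1. However, COL1A1 was detected on MCS replicate 2 too (5.59), and PDGFRA on MCS replicate 1 alone. DCN ran otherwise, with its brightest probe at 5.60 on MCS replicate 3 and at 5.32 and 5.10 on RUNX1 replicates 1 and 2. On the side with high EGR1 and FOSB 3 to 4 of the 6 fibroblast markers were detected, compared with 0 to 1 on the other side. Their summed intensity was 917 to 1035 against 699 to 714, mostly through LUM, while COL1A2 and COL3A1 lay near background on each array (103 to 126). Blood markers did not part in this way, with 1 to 3 of 8 detected and sums of 908 to 966. Of the 7 HEK293 marker genes 4 to 5 were detected. Among them the kidney gene LHX1 was detected on the same arrays as LUM. It was at 5.74 and 5.61 on RUNX1 replicates 1 and 2 and at 5.82 on MCS replicate 1, and at 4.88 to 5.31 on the others. NEFH ran otherwise and was detected on RUNX1 replicate 3 alone. The summed intensity of the 7 HEK293 markers was lower on each RUNX1 array (9716, 8714 and 9446) than on any MCS array (9892, 13060 and 10930). These sums, like the others here, are of intensities before normalization, and VIM was the largest part of each. After normalization NEFM overlapped between the groups, at 11.23 to 11.53 with RUNX1 and 11.30 to 11.43 with MCS. The part of these markers in the values of the members was not tested. On each side separately, RUNX1 arrays (replicates 1 and 2 beside MCS replicate 1, and replicate 3 beside MCS replicates 2 and 3) lay above MCS arrays for 5 of the 9 members, JUN, JUND, FOS, FOSB and EGR1. The same order was found for 13.3% of all genes tested. For JUN and FOS the closest such arrays, RUNX1 replicate 3 and MCS replicate 3, differed only in the second decimal (12.79 and 12.78, and 7.85 and 7.84). JUNB was below on both sides, as were 12.7% of all genes tested. The sides were defined from these arrays and the order was looked at after the values were seen, so it is a description with no test of the members as a group. With the side as a term in the fit, added after the data were seen, the differences were 0.34 for EGR1, 0.38 for FOSB, 0.31 for FOS, 0.23 for JUN, 0.20 for JUND and -0.53 for JUNB, and 0 of 9 members passed an adjusted p under 0.05 from limma (smallest 0.479, JUNB).

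**Figure D4:**
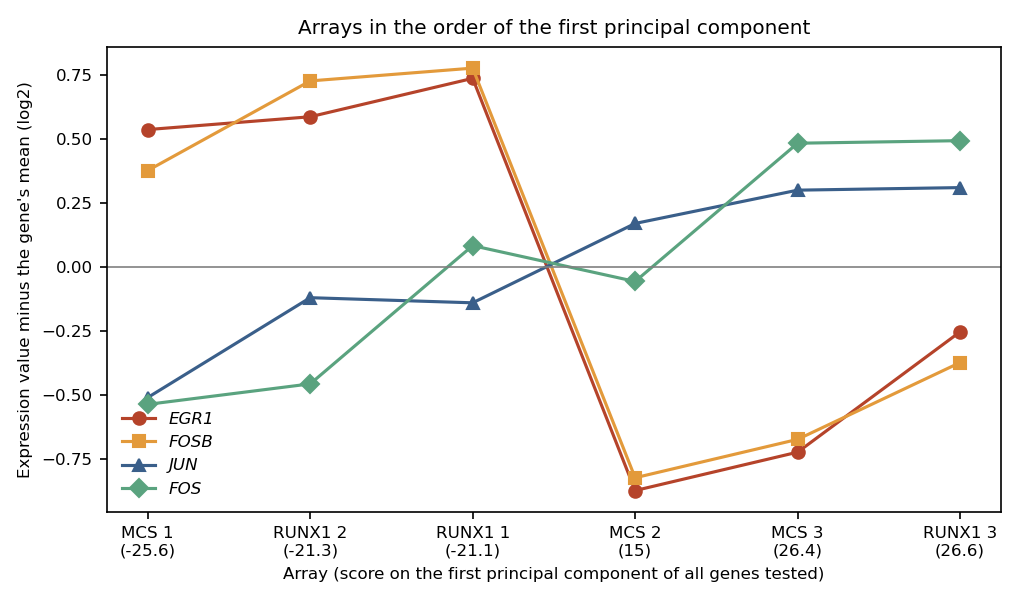
Expression value of EGR1, FOSB, JUN and FOS on each array, minus the mean of the gene over the 6 arrays (log2), with the arrays in the order of their scores on the first principal component (in brackets) and lines that join the values of a gene. EGR1 and FOSB were above their means on the 3 arrays with negative scores and below on the others, and JUN ran the other way.

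Genes around AP-1 were read from the same fit, and 0 of the tested genes of any list passed the threshold in either direction. The lists were of other immediate early genes (32 of 46 tested), dimer partners of the ATF, BATF, MAF and JDP families (12 of 21), JNK and p38 pathway kinases (18 of 21), ERK pathway kinases (13 of 20), SRF with its cofactors (10 of 13), feedback phosphatases and inhibitors (14 of 18), known AP-1 targets (16 of 28) and factors that modify or degrade JUN and FOS (10 of 13). Their median differences ran from -0.060 for the feedback genes to 0.066 for the ERK kinases, beside 0.021 over all genes tested. An unadjusted p under 0.05, which 2.26% of all genes tested had, was found for 3 of the 32 other immediate early genes, 2 of the 14 feedback genes and 1 each of the dimer partners, the ERK kinases and the SRF cofactors.

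The other immediate early genes spread to both sides of 0, with 15 positive and 17 negative differences from -0.53 to 0.53. CCN1, a secreted matricellular protein, was at 8.70, 9.13 and 8.91 with RUNX1 and at 8.14, 8.42 and 8.59 with MCS, a difference of 0.53 (standard error 0.17). KLF2, a zinc finger factor, had 0.41 (standard error 0.17). PHLDA1, an apoptosis-related gene, was at 5.56, 5.39 and 5.87 with RUNX1 and at 5.98, 6.07 and 6.36 with MCS, a difference of -0.53 (standard error 0.18), and was detected on 5 of 6 arrays. MYC, a growth-promoting transcription factor, was at 11.23, 11.25 and 10.97 with RUNX1 and at 11.57, 11.54 and 11.30 with MCS, a difference of -0.32 (standard error 0.15). The groups did not overlap for these 4 of the 32 genes, beside 6.56% of all genes tested, but the 4 were picked by smallest p. Each had an adjusted p = 1.00 from limma.

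Among the feedback genes, which shut MAP kinase signalling down, SPRED2 was at 7.06, 7.24 and 7.17 with RUNX1 and at 6.85, 6.69 and 6.59 with MCS, a difference of 0.45 (standard error 0.13). DUSP7, an ERK phosphatase, had -0.44 (standard error 0.15) and was detected on 4 of 6 arrays. SPRY2 and DUSP10 had 0.28 and -0.32. In the ERK pathway the 4 genes with the smallest p-values were GRB2, the adaptor between receptors and RAS, at -0.41 (standard error 0.14), RPS6KA1 at 0.39, RPS6KA3 at -0.23 and ARAF at 0.19. The coactivator EP300 had -0.41 (standard error 0.14), while CRTC3, NAB1 and MRTFA had 0.20, 0.11 and -0.097. NAB1 binds EGR1 and represses it.

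The JNK and p38 kinases, which act on JUN and ATF proteins, had differences from -0.44 to 0.44. MAP3K5, a stress-activated kinase, had -0.44 (standard error 0.21), MAPK12 -0.24, MAP3K12 0.25 and MAPK8, which encodes a JUN kinase, 0.29. Of the dimer partners, MAF had -0.29 (standard error 0.12), at 8.09, 8.17 and 8.28 with RUNX1 and 8.45, 8.55 and 8.42 with MCS, and ATF5, ATF2 and CREB5 had 0.36, -0.23 and -0.17. Known AP-1 targets showed 8 positive and 8 negative differences, with 0.40 for the cell cycle inhibitor CDKN1A, -0.23 for VIM, 0.14 for LIF and -0.12 for DNMT1. For CSNK2A1, ITCH, DET1 and TRIB2, from the list of modifiers, the values were -0.29, 0.16, -0.30 and 0.066. Each of these genes had an adjusted p = 1.00 from limma.

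**Figure D5:**
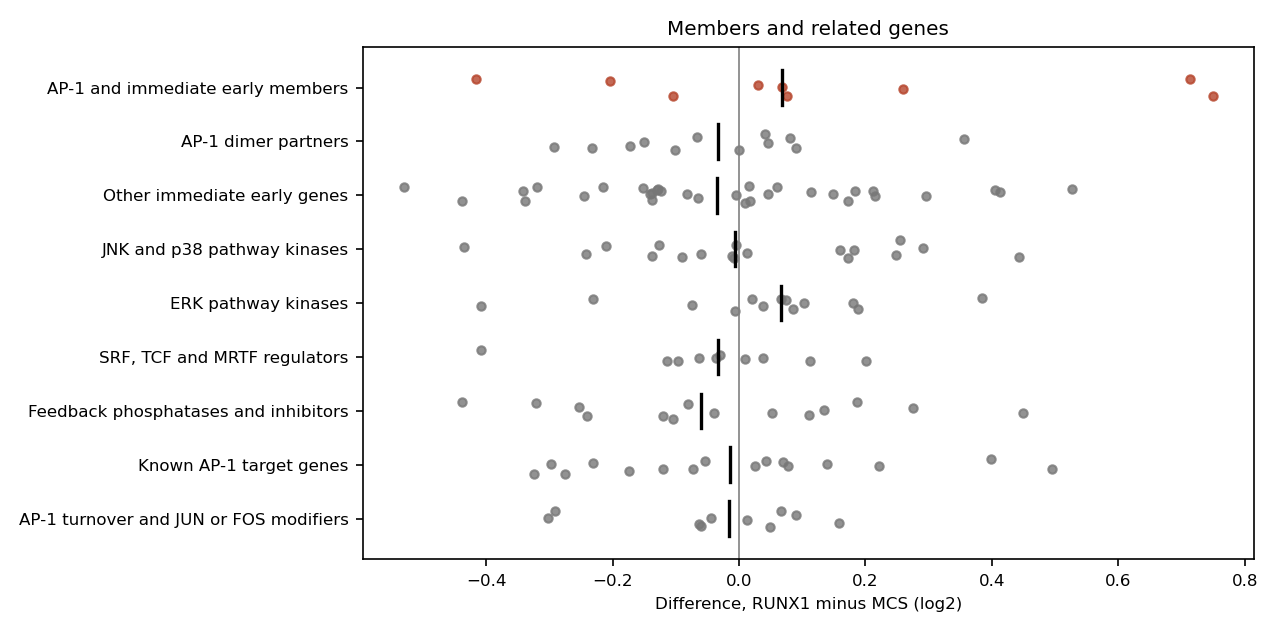
Difference (RUNX1 minus MCS, log2) of each tested gene of the members (red) and of the 8 lists of related genes (grey), with the median of each list as a black line. FOSB and EGR1 at 0.75 and 0.71 lie to the right of all genes of the other lists, whose medians stay between -0.060 and 0.066.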

How the data were processed

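Total RNA (500 ng per sample) was amplified and hybridized to Illumina HT-12 v4 BeadChips. The authors deposited for each of 47231 probes an intensity, summarised over beads with no background subtraction, and a detection p-value. They also deposited values processed with lumi, taken here as log2, since the sources do not state the transformation. The intensities were processed with neqc of limma 3.58.1 (R 4.3.3, offset of 16). Probes were named from the platform annotation (30113 with 1 symbol, 8 with several, 17110 unnamed here). For each gene the brightest probe with a detection p-value below 0.05 on 3 or more of the 6 arrays was kept. The groups, taken from the sample titles, were compared with lmFit and eBayes with no covariate, adjusted by Benjamini-Hochberg, and each member by an exact permutation test over 20 labellings. The fit was tested on simulated data with independent noise for each gene and array. Such data hold no shared component like the split of these arrays, so the simulation does not cover it.

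The members and gene lists were chosen with earlier results of these data known. All members are named, and 4 genes per list by smallest p. Alternatives covered background correction, normalization, detection filters, the authors' processed values, the methods' t-test, an eBayes trend, array weights, a block for the replicate number and omission of each array in turn. Promoters came from RefSeq (GRCh38.p14), with 8 of 10 members matched. The number of arrays limits the precision. No chip or position was given, so no batch was tested.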

Additional observations from a re-analysis of the deposited data

How the results depend on the processing

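With 3 arrays per group, the count of 0 members called held under 19 of 20 alternatives. Array weights called 2 members, FOSB and EGR1, among 897 genes (513 higher, 384 lower). At the probe level, 0 probes passed under every alternative that was run there. By the methods' t-test 360 genes had an unadjusted p under 0.05, and 0 passed after adjustment. The replicate numbers are not known to pair arrays, since the deviations of same-numbered arrays correlated at 0.568, -0.347 and 0.704. With the replicate block 0 genes and 0 members were called, with 523 genes at an unadjusted p under 0.05 instead of 251.

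Signs held under every alternative for JUND, FOSB, EGR1 and IER3. That of JUNB held under the 19 in which it was tested, but JUNB passed the filter through the MCS arrays alone. The alternatives reuse the same arrays and are not independent of each other. Without normalization, which moved the median of all genes to -0.17, JUN, FOS and IER2 were at -0.11, -0.14 and -0.15. Array weights gave -0.25 for JUN and -0.21 for FOS, and moved FOSL2 to -0.41, JUND to 0.41 and IER2 to 0.24, none of them past the threshold, while the side of the first principal component as a term gave 0.045 for FOSL2. Leaving out 1 array at a time, the difference ran from -0.22 to 0.19 for JUN, from -0.17 to 0.33 for FOS, from -0.28 to 0.021 for FOSL2 and from -0.076 to 0.16 for IER2. The cause was not tested. JUNB and FOSL2 were not tested under the stricter filter. Near background, as for JUNB, FOSL1 and FOSL2, the signal limits what a difference can show.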
